A study of Homo sapiens with 29 samples.

Results

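MYC and 35 genes of ribosome biogenesis were followed by RNA sequencing in 2 prostate cancer cell lines treated with inhibitors of DNA-PK and of TOR kinase and with the antiandrogen enzalutamide. These 36 genes were taken as a fixed list of symbols, matched to the identifiers of the count tables, out of 63677 features in each table. They comprise MYC itself, 4 genes of the RNA polymerase I machinery, 5 of the box C/D and 5 of the box H/ACA small nucleolar ribonucleoproteins, 8 of small subunit maturation, 9 of large subunit maturation and 4 abundant nucleolar proteins. C4-2 cells, a castration-resistant derivative of LNCaP, gave 8 groups of 3 libraries: NU7441, CC-115, CC-223, NU7441+Enza, CC-115+Enza, CC-223+Enza, enzalutamide alone (Enza) and untreated cells (Ctrl). 22Rv1 cells, from a relapsed prostate cancer xenograft, gave 2 CC-115 and 3 Control libraries. Per the labels every compound was given at 1 µM for 24 h, and all cells, controls included, were kept in hormone-proficient medium. NU7441 and CC-115 are labelled as DNA-PK inhibition and CC-223 as a TOR kinase inhibitor. CC-115 is known to inhibit TOR kinase as well as DNA-PK. The labels do not say whether replicates came from separate cultures, so p-values measure only the spread between these libraries.

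Ribosome biogenesis begins in the nucleolus, where RNA polymerase I transcribes the precursor of the large ribosomal RNAs. Small nucleolar ribonucleoproteins then modify that precursor, and assembly factors cleave it, fold it and build it into the small and the large subunit. MYC, which binds E-boxes as a dimer with MAX, is known to drive many of these genes, and TOR kinase signalling is known to set the rate of ribosome production in growing cells.

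The core of the E-box, CACGTG, was searched for in RefSeq promoter windows (build GRCh38.p14, from 250 bases before to 50 after the annotated start), because it is the letters a MYC dimer is known to bind. The motif is its own reverse complement, so 1 search covers both strands, and no other motif was searched. Of the 36 genes, 29 had a window and 14 of these (48.3%) held CACGTG, against 8.8% of 27305 genes with a window and 10.9% of 15843 protein-coding genes. In 5 of the 14 it began before the start site. Their last 60 bases before the start and the first transcribed base are shown 5′ to 3′ on the coding strand, with the E-box in capitals, because these genes return in the comparisons with CC-115. NOP10 holds a second match 170 bases before its start, outside the stretch shown.
RRP9: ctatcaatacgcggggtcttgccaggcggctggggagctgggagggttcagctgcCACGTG
NOP10: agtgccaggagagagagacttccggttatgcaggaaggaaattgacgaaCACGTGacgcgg
UTP4: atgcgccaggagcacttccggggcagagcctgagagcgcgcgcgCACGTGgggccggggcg
UTP20: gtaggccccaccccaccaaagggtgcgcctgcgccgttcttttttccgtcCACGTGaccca
DDX21: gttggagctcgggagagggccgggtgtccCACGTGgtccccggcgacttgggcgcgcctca
The RRP9 window is chr3:51941904-51941964 on the minus strand, that of NOP10 chr15:34343136-34343196 on the minus strand, and those of UTP4, UTP20 and DDX21 are chr16:69132589-69132649, chr12:101280045-101280105 and chr10:68956587-68956647 on the plus strand. The E-box began 5 bases before the start in RRP9, 11 in NOP10, 16 in UTP4, 10 in UTP20 and 31 in DDX21. A match in these windows is a description of the letters and not a measured binding site.

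Library totals lay between 29.58 and 44.86 M counts in C4-2 and between 31.61 and 44.91 M in 22Rv1. The identifier of BOP1, a large subunit factor, lies on a patch scaffold and held 0 counts in all 29 libraries, so it was not measured. The other 35 genes had at least 152 counts in every library and passed the filter on low counts in every fit. KLK3, HOXB13, KRT8, KRT18 and FOLH1, markers of prostate luminal cells, were detected in every library, and 8 markers of immune, endothelial and stromal cells summed to 3.09 to 14.4 CPM (counts scaled to a common library size), with PECAM1 at 0 in all libraries. Among C4-2 libraries, Enza 1 and CC-115+Enza 1 stood apart, with mean correlations to their own group of 0.9778 and 0.9773. Results are therefore given with and without them, also where neither is in the groups compared, since all C4-2 libraries share 1 estimate of the spread. In bulk RNA, fewer cells expressing a gene and less RNA per cell cannot be told apart.

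Levels below are CPM scaled by edgeR's trimmed mean of M-values (TMM), as mean ± SD. Per kilobase of gene model, which allows genes to be ranked, the nucleolar chaperone NPM1 stood highest in C4-2 Ctrl cells at 600 ± 56.2 CPM per kilobase, followed by NOP10 (203 ± 16.9), DDX21 (169 ± 9.96), NCL (158 ± 7.84) and GNL3 (117 ± 11). MYC came seventh in that order at 81.5 ± 0.998 CPM per kilobase, next to NOLC1 (82.1 ± 3.01) and NOP56 (80.8 ± 2.94), which differed from it by less than 1 SD. NAF1 was the lowest at 2.28 ± 0.284. In 22Rv1 Control cells NOP10 led at 151 ± 3.25 CPM per kilobase, then NPM1 (112 ± 11.5) and MYC (78.6 ± 6.33), with NAF1 again lowest at 1.43 ± 0.189. NPM1 and RRN3 have near-identical pseudogene copies, so their counts are uncertain. Overlap with genes on the other strand also makes some members uncertain, because the strand setting of the counting is not given: NOB1, UTP20, NOP14, RRP12, WDR43, UBTF and NAF1 overlap non-coding or unclassified features there, and RRN3, NHP2, UTP4, HEATR1, PES1, WDR12, NOP16, NIP7, NOC2L, NOC3L and GNL3 overlap coding genes.

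MYC (ENSG00000136997, hg19 chr8:128747680-128753674, plus strand), the transcription factor, was higher with CC-115 and CC-223 and lower with enzalutamide in C4-2 cells. It stood at 331, 340 and 333 CPM in the CC-115 libraries, against 242, 243 and 248 CPM in Ctrl. The groups did not overlap, and the log2 fold change was 0.45 ± 0.10 (± SE, adjusted p = 0.000349 by edgeR's quasi-likelihood test with Benjamini-Hochberg adjustment over all genes, as throughout). With CC-223 it stood at 302, 290 and 320 CPM, again above every Ctrl library (0.32 ± 0.10, edgeR adjusted p = 0.0207). That call held under 6 of 14 alternatives, with fold changes between 0.24 and 0.37 and adjusted p between 6.99e-06 and 0.177 over all 14. It was lost with median-of-ratios scaling (0.27, adjusted p = 0.0635), with no low-count filter and without any single library of either group. With NU7441 it stood at 275, 295 and 265 CPM, without overlap with Ctrl, but the change of 0.19 ± 0.10 was not called (95% interval −0.01 to 0.38, edgeR adjusted p = 0.336; 0.0094 without Enza 1 and CC-115+Enza 1).

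With enzalutamide alone MYC stood at 195, 178 and 171 CPM, below all 3 Ctrl libraries (−0.43 ± 0.10, edgeR adjusted p = 0.00363). On that background MYC was higher with CC-115 and with CC-223. The CC-115+Enza libraries held 245, 333 and 294 CPM and the CC-223+Enza libraries 272, 266 and 276 CPM, against 195, 178 and 171 CPM in Enza. The differences from Enza were 0.68 ± 0.10 (edgeR adjusted p = 1.89e-06) and 0.58 ± 0.10 (edgeR adjusted p = 0.000103). NU7441+Enza held 203, 200 and 199 CPM, above all Enza libraries by a small margin that was not called (0.14, 95% interval −0.05 to 0.34, edgeR adjusted p = 0.508). In 22Rv1 the CC-115 libraries held 283 and 301 CPM of MYC, against 225, 224 and 257 CPM in Control. The groups did not overlap, and the change of 0.31 ± 0.11 missed the threshold (95% interval 0.09 to 0.54, edgeR adjusted p = 0.0596), with 3 of 11 alternatives below it.

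**Figure D1:**
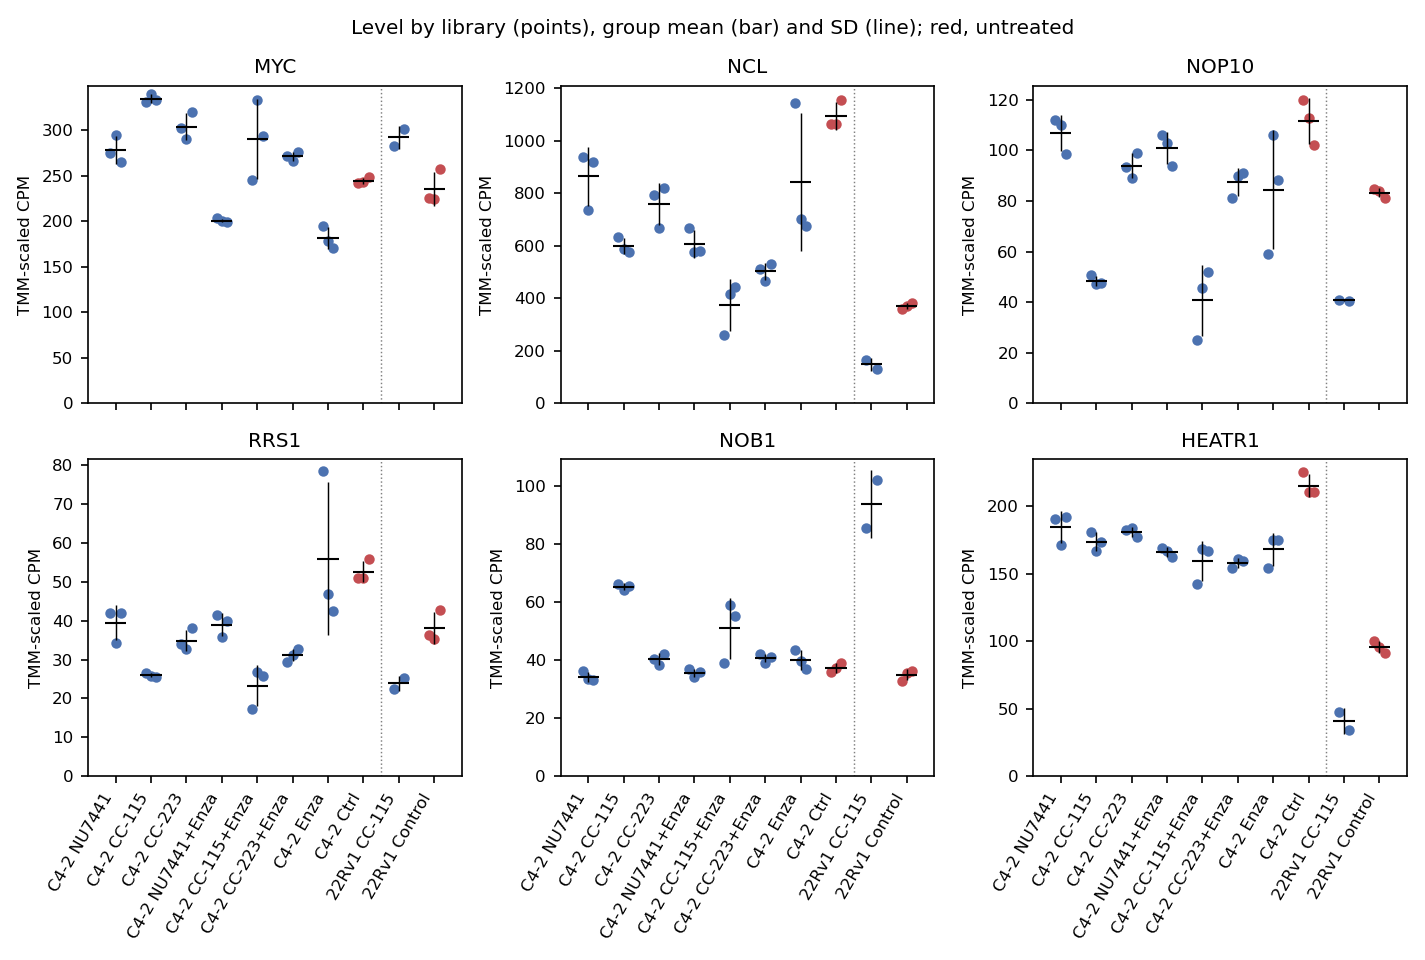
Level of MYC, NCL, NOP10, RRS1, NOB1 and HEATR1 in each library (points; vertical axis, TMM-scaled CPM from 0) by group, with the mean (bar) and SD (line) of each group and untreated cells in red. With CC-115 in both lines MYC and NOB1 sit above the untreated libraries and the other 4 genes below them; the high NCL and RRS1 point of the Enza group is Enza 1.

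CC-115 against Ctrl asked what the inhibitor of both kinases did alone in C4-2 cells. Of the 35 measured genes 22 fell, against 26.0% of all 22860 genes tested, and 2 rose, against 27.6% (edgeR adjusted p under 0.05). The 24 calls in all stand beside 53.6% of all genes. Their median log2 fold change was −0.40, beside 0.03 over all genes tested. The genes that fell were mostly of processing and assembly, as are most genes on the list. Of the smaller groups, 3 of the 4 genes of the polymerase I machinery and 2 of the 4 nucleolar proteins were not called. Without Enza 1 and CC-115+Enza 1, 24 fell and 6 rose, against 31.1% and 32.6% of all genes. With protein-coding genes only 22 fell and 5 rose, against 33.3% and 34.3% of those genes. Markers of other cells summed to 5.28 to 5.96 CPM with CC-115 and 5.76 to 7.27 CPM in Ctrl, and of 3 testable ones the endothelial VWF fell (−1.14 ± 0.20). The stromal COL1A1 was at 0.54 in both fits, called higher only without the 2 libraries (edgeR adjusted p = 0.011, against 0.167). Small and mitochondrial RNA took 5.95% to 6.25% of counts with CC-115 and 4.45% to 5.9% in Ctrl. The part of these shares and markers in the result was not tested.

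All 5 genes of the box C/D group fell with CC-115. They encode proteins of the particles in which small nucleolar RNAs guide ribose methylation or, with U3, cleavage of ribosomal RNA precursors, and a chaperone of such particles. NOP56, a core protein of the particle, stood at 234, 223 and 228 CPM in CC-115 and at 400, 374 and 380 CPM in Ctrl (−0.75 ± 0.13, edgeR adjusted p = 2.28e-05). FBL, the methyltransferase fibrillarin, changed by −0.64 ± 0.15, RRP9, a protein of the U3 particle, by −0.48 ± 0.20, NOP58 by −0.41 ± 0.15, and NOLC1, the chaperone, by −0.40 ± 0.12. In all 5 every CC-115 library lay below every Ctrl library, but how many of all genes separated in this way was not counted. NOP56 and NOP58 host small nucleolar RNAs in their introns, which have identifiers of their own in the tables.

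The box H/ACA genes, whose particle converts uridine to pseudouridine, split. NOP10 (ENSG00000182117, hg19 chr15:34633917-34635378, minus strand), the smallest core protein, stood at 50.6, 47.2 and 47.4 CPM in CC-115, against 120, 113 and 102 CPM in Ctrl. That is the largest change of any member in this comparison (−1.21 ± 0.18, edgeR adjusted p = 3.32e-06). The pseudouridine synthase DKC1 (−0.40 ± 0.15) and the core protein NHP2 (−0.34 ± 0.13) fell as well. The values of GAR1 (−0.10, 95% interval −0.40 to 0.20) and of the assembly factor NAF1 (0.08, −0.19 to 0.34) were not called.

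In the small subunit group 5 of 8 genes fell and 1 rose. WDR43 (−0.62 ± 0.13), UTP20 (−0.49 ± 0.09), UTP4 (−0.39 ± 0.13), HEATR1 (−0.31 ± 0.09) and BYSL (−0.29 ± 0.10) fell. All but BYSL, which acts later on the small subunit precursor, belong to the processome that makes the early cuts. NOB1 (ENSG00000141101, hg19 chr16:69775770-69788843, minus strand), the endonuclease that makes the final cut of the small subunit RNA, rose: it stood at 66.3, 64.1 and 65.3 CPM in CC-115 and at 35.7, 37.2 and 38.8 CPM in Ctrl (0.81 ± 0.11, edgeR adjusted p = 7.56e-07). NOP14 (0.22 ± 0.16) and RRP12 (0.29 ± 0.15), an export factor of the small subunit, were not called, although every CC-115 library lay above every Ctrl library. Both were called higher without Enza 1 and CC-115+Enza 1.

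In the large subunit group 6 of 8 measured genes fell. RRS1, which brings the small RNA of the large subunit into the particle, stood at 26.6, 25.9 and 25.6 CPM in CC-115, against 51, 51 and 55.8 CPM in Ctrl (−1.01 ± 0.17, edgeR adjusted p = 1.12e-05). NOP2, an RNA methyltransferase, stood at 76, 79.7 and 76.8 CPM in CC-115 and 135, 132 and 130 CPM in Ctrl (−0.77 ± 0.12, edgeR adjusted p = 7.96e-06). NIP7 (−0.61 ± 0.15), NOC3L (−0.58 ± 0.14), NOP16 (−0.55 ± 0.13) and WDR12 (−0.46 ± 0.12) also fell. WDR12 and PES1 are partners in 1 complex, yet the value of PES1 was 0.05 (95% interval −0.35 to 0.45). NOC2L (−0.32 ± 0.17, edgeR adjusted p = 0.114) was called lower without the 2 libraries that stood apart.

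Among the nucleolar proteins NCL, nucleolin (ENSG00000115053, hg19 chr2:232318242-232348352, minus strand), stood at 631, 587 and 575 CPM in CC-115, against 1061, 1062 and 1156 CPM in Ctrl (−0.87 ± 0.18, edgeR adjusted p = 0.000148). The RNA helicase DDX21 fell by 0.48 ± 0.15 on the log2 scale. NPM1 stood at 2217, 1956 and 2079 CPM in CC-115 and overlapped with 2535, 2240 and 2116 CPM in Ctrl (−0.14, 95% interval −0.48 to 0.20). GNL3, nucleostemin, had a value of −0.17 (−0.45 to 0.10). In the polymerase I machinery POLR1B, its second largest subunit, stood at 68.6, 64.1 and 67 CPM in CC-115 and 118, 110 and 105 CPM in Ctrl (−0.74 ± 0.10, edgeR adjusted p = 1.07e-06). The largest subunit POLR1A (0.16 ± 0.10), the initiation factor RRN3 (0.22 ± 0.14) and the promoter-binding factor UBTF (−0.01 ± 0.16) were not called, and POLR1A and RRN3 were called higher without the 2 libraries.

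**Figure D2:**
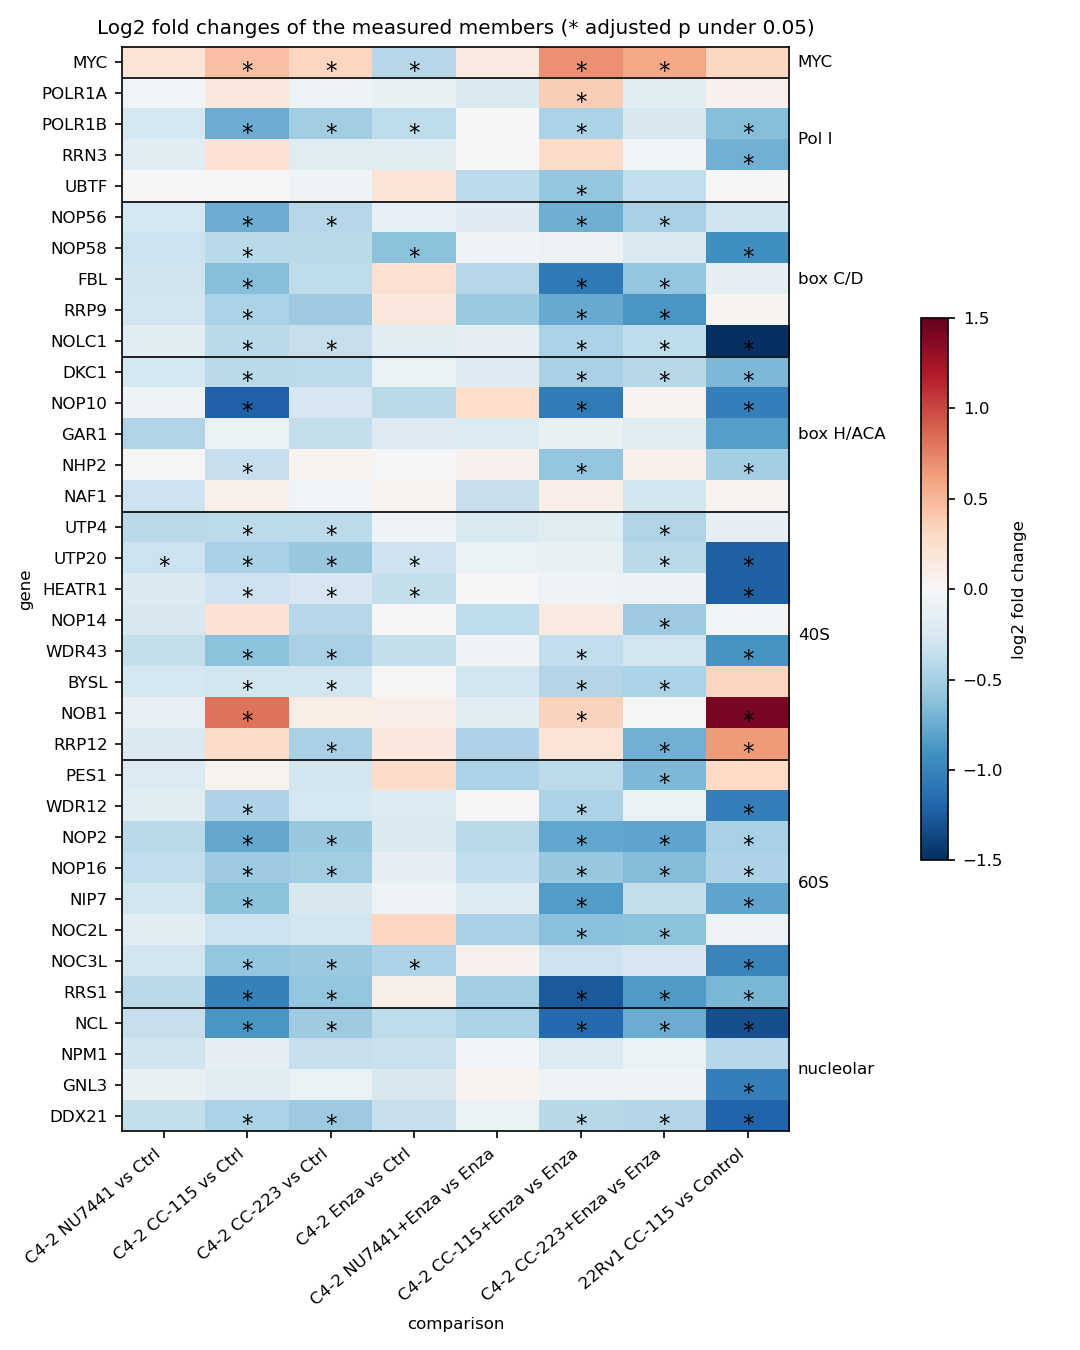
Log2 fold change (colour, −1.5 to 1.5) of the 35 measured genes (rows, by role) in 8 comparisons (columns), with a star where edgeR's adjusted p is under 0.05. The columns with CC-115 are mostly blue, with MYC and NOB1 red in all 3 of them, and the 2 columns with NU7441 hold 1 star in all.

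CC-223 against Ctrl asked what a TOR kinase inhibitor without the DNA-PK label did. Here 15 of 35 genes fell (10.9% of all genes tested did) and MYC alone rose (12.9%, or 23.9% in either direction), with a median of −0.36 beside 0.07 over all genes. With Enza 1 and CC-115+Enza 1 left out, 28 fell and 1 rose, against 20.4% and 22.5% of all genes. The genes that fell furthest were RRS1 (34.1, 32.6 and 38 CPM in CC-223, against 51, 51 and 55.8 CPM in Ctrl, −0.59 ± 0.17), UTP20 (−0.57 ± 0.09), NOP2 (−0.57 ± 0.12), NOC3L (−0.56 ± 0.14), DDX21 (−0.54 ± 0.15) and NCL (−0.53 ± 0.17). These 6 were chosen among called genes whose groups did not overlap, so that separation is no further result. The call of NCL was lost without CC-223 replicate 2 (adjusted p = 0.084). By role, 6 of 8 small subunit genes, 4 of 8 large subunit genes, 2 of 5 box C/D genes, 2 of 4 nucleolar genes and, of the polymerase I genes, POLR1B (−0.52 ± 0.10) fell. NOB1 stood at 40.5, 38.1 and 42.2 CPM in CC-223 and 35.7, 37.2 and 38.8 CPM in Ctrl (0.11, 95% interval −0.11 to 0.33). Small and mitochondrial RNA took 6.11% to 6.58% of counts in CC-223 and 4.45% to 5.9% in Ctrl, and its part was not tested.

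NU7441 against Ctrl asked what the other compound labelled as DNA-PK inhibition did. With all libraries 1 of 35 genes fell (1.11% of all genes did) and 0 rose (2.28%, or 3.39% in either direction) by edgeR. DESeq2 called 5 lower and 0 higher (3.62% and 3.98% of all genes). An unadjusted p under 0.05 marked 13 lower and 0 higher (7.23% and 9.83% of all genes). At the same time 33 of 35 values lay below 0, with a median of −0.26 beside 0.02 over all genes. The gene called was UTP20, at 130, 117 and 134 CPM in NU7441 and 168, 156 and 153 CPM in Ctrl (−0.32 ± 0.09, edgeR adjusted p = 0.0496). Its call was lost with no low-count filter (0.233), with the replicate number as a term (0.0793) and without any of 4 single libraries. The count differed with the libraries that entered the fit: 28 genes were called without Enza 1 and CC-115+Enza 1, 27 lower and 1 higher, against 11.3% and 10.4% of all genes, and 22, all lower, in a fit of these 6 libraries only, against 7.58% lower. The median fold change was −0.26 with and without the 2 libraries. NCL stood at 937, 735 and 919 CPM in NU7441, below 1061, 1062 and 1156 CPM in Ctrl (−0.34 ± 0.17, edgeR adjusted p = 0.323; 0.0034 without the 2 libraries). NOP10 overlapped between NU7441 (112, 110 and 98.7 CPM) and Ctrl (120, 113 and 102 CPM).

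**Figure D3:**
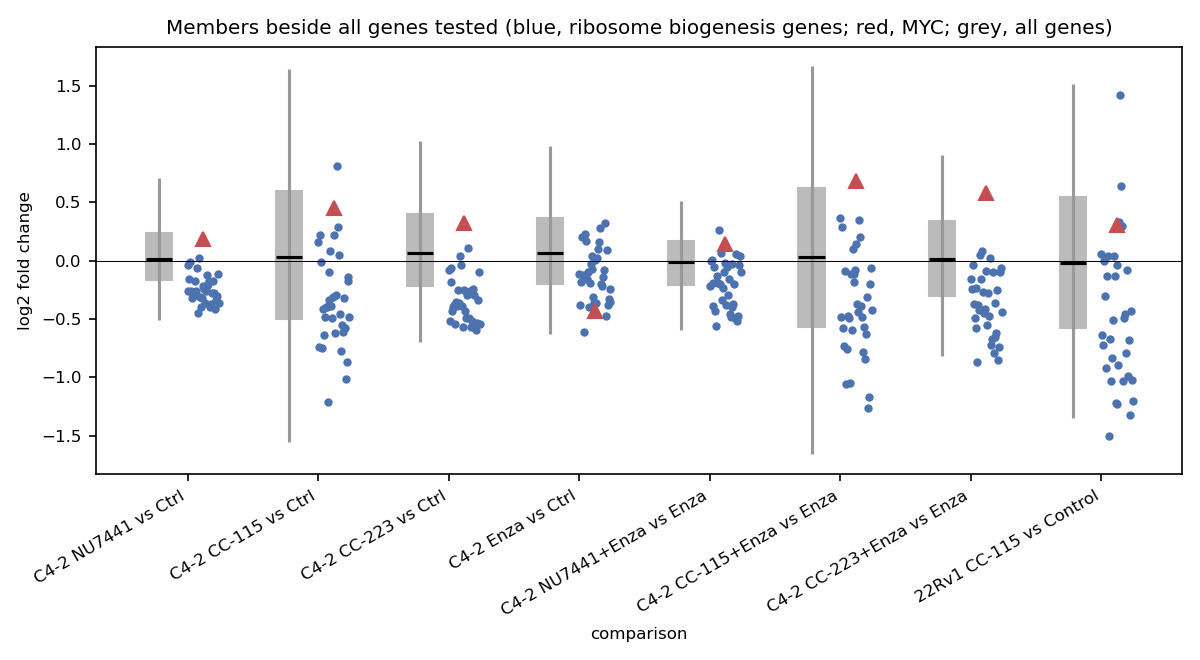
Log2 fold changes of the ribosome biogenesis genes (blue points) and MYC (red triangle) beside all genes tested in 8 comparisons (grey box, interquartile range; grey line, a wider range that leaves out the extremes at both ends; black bar, median). The blue points centre below the median of all genes in each comparison, MYC lies above most of them except with Enza alone, and the members' range is widest in the 3 comparisons with CC-115.

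The 3 inhibitors were compared directly at their shared dose and time, in 3 pairs, with p-values adjusted over all genes of each pair. CC-115 and CC-223 differed in 10 of 35 genes, 5 higher (20.5% of all genes) and 5 lower (22.7%) with CC-115, so that the share called was below the 43.1% over all genes. Under median-of-ratios scaling the split was 5 and 1, against 21.7% and 20.7% of all genes. Leaving out Enza 1 and CC-115+Enza 1, it was 8 and 10, against 26.1% and 30.2% of all genes. Without any single CC-115 library it was 5 and 1, against 19.8% to 20.2% and 15.9% to 16.2% of all genes. Without CC-223 replicate 1 it was 4 and 1 (19.5% and 16.2%), and without CC-223 replicate 3 it was 6 and 1 (19.6% and 16.4%). NOP10 stood at 50.6, 47.2 and 47.4 CPM with CC-115, against 93.3, 89.3 and 99.1 CPM with CC-223 (−0.96 ± 0.18, edgeR adjusted p = 0.000113). NOB1 (66.3, 64.1 and 65.3 CPM with CC-115, 40.5, 38.1 and 42.2 CPM with CC-223) differed by 0.70 ± 0.11, edgeR adjusted p = 1.13e-05. RRP12 stood at 114, 126 and 125 CPM with CC-115 and 69.1, 69.9 and 72.9 CPM with CC-223, a difference of 0.78 ± 0.15, edgeR adjusted p = 0.000142. NOP14 (0.66 ± 0.16), RRN3 (0.40 ± 0.14) and POLR1A (0.25 ± 0.10) were also higher with CC-115, and NHP2 (−0.38 ± 0.13), NIP7 (−0.37 ± 0.15), NOP56 (−0.33 ± 0.13) and RRS1 (−0.42 ± 0.17) lower. The call of RRS1 was lost with DESeq2 (adjusted p = 0.0733), with median-of-ratios scaling (0.0752) and with the replicate number as a term (0.0538). It was also lost without any single library of either group. In the fits above with 1 lower call that call was NOP10, so the calls of NHP2, NIP7 and NOP56 were lost in them. For MYC the difference was 0.14 (95% interval −0.06 to 0.33, edgeR adjusted p = 0.277), and it was called under 3 of 14 alternatives, among them without the 2 libraries (0.0264).

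CC-115 and NU7441 differed in 14 genes, 6 higher (24.5%) and 8 lower (24.5%) with CC-115, against 49.0% of all genes in either direction. Once Enza 1 and CC-115+Enza 1 were left out it was 10 higher and 18 lower, against 29.8% and 30.2% of all genes. MYC (331, 340 and 333 CPM with CC-115, 275, 295 and 265 CPM with NU7441) was 0.27 ± 0.10 higher (edgeR adjusted p = 0.0278), a call lost with no low-count filter (0.124) and without NU7441 replicate 1 (0.0676) or 3 (0.061). NOP10 (−1.14 ± 0.18), RRS1 (−0.60 ± 0.17), NCL (−0.53 ± 0.17) and NOP56 (−0.49 ± 0.13) were lower, and NOB1 (0.93 ± 0.11), RRP12 (0.51 ± 0.15), NOP14 (0.46 ± 0.16) and NAF1 (0.39 ± 0.14) higher with CC-115. The call of NCL was lost without NU7441 replicate 1 or 3 or CC-115 replicate 2 or 3, and those of NOP14 and NAF1 without NU7441 replicate 2. Between NU7441 and CC-223 edgeR called 0 of 35 genes, where 3.2% of all genes were called higher and 4.12% lower with NU7441, 7.31% in all. DESeq2 called 1 gene (11.6% of all genes), and an unadjusted p under 0.05 marked 3 (20.8%). In the fit that lacked Enza 1 and CC-115+Enza 1, 10 were higher and 2 lower with NU7441, against 12.9% and 12.3% of all genes. For MYC the difference was −0.13 (95% interval −0.32 to 0.07), and the median over the 35 genes was 0.09.

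Enzalutamide against Ctrl asked what the antiandrogen did alone. Of 35 genes 6 fell (6.75% of all genes did) and 0 rose (9.35%, or 16.1% in either direction) by edgeR, with a median of −0.14 beside 0.06. DESeq2 called 7 lower and 0 higher (11.6% and 10.2% of all genes). At an unadjusted p under 0.05 it was 10 lower and 0 higher (13.4% and 18.0% of all genes). Besides MYC these were NOP58 (134, 147 and 142 CPM in Enza, 234, 207 and 205 CPM in Ctrl, −0.61 ± 0.15, edgeR adjusted p = 0.00669), NOC3L (−0.47 ± 0.14), POLR1B (−0.38 ± 0.10), HEATR1 (−0.36 ± 0.09) and UTP20 (−0.31 ± 0.09). In these 6 genes the groups did not overlap, but how many of all genes separated in this way was not counted. Without Ctrl replicate 1 the calls of NOC3L, POLR1B and UTP20 were lost, and 3 genes were called, beside 7.67% of all genes. In a fit of the Enza and Ctrl libraries only, 2 fell (2.68% of all genes did), and the calls of NOC3L (adjusted p = 0.0906), POLR1B (0.0892), HEATR1 (0.0959) and UTP20 (0.123) were lost. Enza 1 differed from its partners in many members: PES1 stood at 298 CPM there and at 157 and 136 CPM in Enza 2 and 3, NOC2L at 452, 241 and 230 CPM, UBTF at 205, 112 and 108 CPM, and NCL at 1144, 702 and 676 CPM. Without Enza 1 and CC-115+Enza 1, 21 genes fell (11.7% of all genes did), with NCL then at −0.67 (adjusted p = 3.67e-06, against −0.38 and 0.138). Small and mitochondrial RNA took 5.88% to 9.31% of counts in Enza and 4.45% to 5.9% in Ctrl. Markers of other cells summed to 6.07 to 14.4 CPM in Enza and 5.76 to 7.27 CPM in Ctrl, with 1 of 3 testable ones called, COL1A1 (1.26 ± 0.32). Without the 2 libraries COL1A1 was at 0.58, still called higher, and VWF was called lower (−0.77 ± 0.17, edgeR adjusted p = 0.000733). With all libraries VWF was at −0.43 (0.135). The part of these shares and markers in the Enza result was not tested.

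Combinations were compared with Enza alone, so all 3 share the Enza libraries, Enza 1 included. With CC-115+Enza 19 of 35 genes fell (30.2% of all genes did) and 3 rose (28.5%, or 58.7% in either direction), with a median of −0.42 beside 0.03. Without Enza 1 and CC-115+Enza 1, 17 fell (29.9%) and 8 rose (27.9%), and the median was −0.17 beside −0.02. RRS1 stood at 17.2, 26.9 and 25.7 CPM in CC-115+Enza, against 78.5, 46.9 and 42.5 CPM in Enza (−1.26 ± 0.17, edgeR adjusted p = 4.11e-07; −0.76 without the 2 libraries). NCL stood at 260, 416 and 444 CPM in CC-115+Enza, against 1144, 702 and 676 CPM in Enza (−1.17 ± 0.18; −0.68 without them). NOP10 (24.9, 45.4 and 51.8 CPM, against 59.2, 106 and 88.4 CPM) changed by −1.05 ± 0.18 with all libraries and by −1.0 without the 2.

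FBL (−1.06 ± 0.15), NIP7 (−0.84 ± 0.15) and NOP2 (−0.78 ± 0.12) also fell with CC-115+Enza. They did so without the 2 libraries as well, at −0.64, −0.44 and −0.47. MYC, POLR1A (0.37 ± 0.10, edgeR adjusted p = 0.00203) and NOB1 (0.35 ± 0.11) rose. The calls of RRP9 (−0.76), NOC2L (−0.63) and UBTF (−0.58) were lost without those libraries, where the values were −0.08, −0.07 and −0.06. PES1 moved to 0.30 without them (adjusted p = 0.00042), against −0.39 with them (0.108). In a fit of only the 6 libraries compared, 1 gene was called higher and 7 lower, against 18.8% and 20.6% of all genes. Small and mitochondrial RNA took 6.22% to 7.14% of counts in CC-115+Enza and 5.88% to 9.31% in Enza, and VWF was lower (−2.05 ± 0.23); their part in the result was not tested.

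With CC-223+Enza 17 of 35 genes fell (15% of all genes did) and MYC alone rose (13.0%, or 28% in either direction), with a median of −0.37 beside 0.02. After removal of the same 2 libraries 23 fell (18.8%) and 1 rose (17.4%), while without Enza replicate 1 alone 11 genes were called (22.4% of all genes). NOP2 stood at 64.6, 66.8 and 66 CPM in CC-223+Enza, against 138, 103 and 101 CPM in Enza (−0.79 ± 0.12, edgeR adjusted p = 3.85e-05). RRP9 (−0.87 ± 0.20), RRS1 (−0.85 ± 0.17), NCL (−0.74 ± 0.18), RRP12 (−0.72 ± 0.15) and PES1 (−0.67 ± 0.21) fell too. These sizes are with all libraries, and Enza 1 was the highest Enza library in each of these genes. Without Enza 1 and CC-115+Enza 1 the lowest value of any member was −0.63. The calls of RRP9 (−0.43, edgeR adjusted p = 0.0528) and PES1 (−0.23, 0.354) were lost without Enza replicate 1. With only the libraries compared they were lost as well (0.0652 and 0.124). With NU7441+Enza 0 of 35 genes were called by edgeR or DESeq2, with a median of −0.19 beside −0.01. Of all genes 0.223% rose and 0.157% fell by edgeR, 0.381% in all, and 2.18% were called by DESeq2. At an unadjusted p under 0.05 it was 14 genes, all lower, against 9.06% of all genes lower. Without Enza replicate 3 edgeR called 11 genes (4.96% of all genes in either direction) and without Enza replicate 2 it called 3 (2.77%). Without Enza 1 and CC-115+Enza 1 it called 1 (2.59%), NOP2 (−0.24, adjusted p = 0.0391).

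The interaction of each inhibitor with enzalutamide asked whether the inhibitor did the same with and without it. With all libraries 0 of 35 genes had a called interaction for NU7441, CC-115 or CC-223 by edgeR, where 0.0%, 0.993% and 0.127% of all genes were called higher and 0.0%, 2.27% and 0.249% lower (0.0%, 3.27% and 0.376% in all). DESeq2 called 1 gene for CC-115 (6.07% of all genes) and 0 for NU7441 and CC-223 (0.0% and 1.21%). At an unadjusted p under 0.05 it was 3 genes for CC-115 (17.4% of all genes) and 0 for NU7441 and CC-223 (6.77% and 9.71%). Without CC-115+Enza replicate 1 alone, 5 genes were called for CC-115 (4.08% of all genes). Without Enza 1 and CC-115+Enza 1, 13 genes had a called positive interaction with CC-115 (2.72% of all genes did). MYC was among them (0.39, adjusted p = 0.00224; 0.22 and 0.416 with all libraries), and so were NOP58 (0.52), UTP20 (0.43), WDR43 (0.40) and RRP9 (0.40). For NU7441 the interaction of MYC was −0.05 (95% interval −0.32 to 0.23, edgeR adjusted p = 0.93). For CC-223 MYC was the 1 gene called without those libraries (0.32, adjusted p = 0.0233; 0.27 and 0.547 with all libraries; 0.602% of all genes called higher).

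In 22Rv1 cells CC-115 against Control asked for the same effect in a second line. Of 35 genes 19 fell (20.7% of all 19392 genes tested did) and 2 rose (20.2%, or 40.9% in either direction), with a median of −0.51 beside −0.02 over all genes. NOLC1 stood at 85.2 and 74.2 CPM in CC-115, against 224, 202 and 250 CPM in Control (−1.5 ± 0.14, edgeR adjusted p = 0.00032). NCL stood at 166 and 131 CPM in CC-115, against 360, 370 and 382 CPM in Control (−1.32 ± 0.13, edgeR adjusted p = 0.000381). HEATR1 (47.4 and 34.1 CPM, against 99.7, 95.9 and 91 CPM) changed by −1.23 ± 0.16, UTP20 (30.3 and 26.1 CPM, against 65.8, 70.1 and 60.3 CPM) by −1.22 ± 0.14, and DDX21 by −1.20 ± 0.19. These 5 were chosen among called genes whose groups did not overlap, so that separation is no further result.

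NOB1 rose in 22Rv1 too, at 85.3 and 102 CPM in CC-115 and 32.9, 35.6 and 36.3 CPM in Control (1.42 ± 0.13, edgeR adjusted p = 0.000312). RRP12 (204 and 265 CPM in CC-115, 144, 141 and 166 CPM in Control) rose by 0.64 ± 0.15, edgeR adjusted p = 0.0101, and lost its call without CC-115 replicate 2 (0.0525). By role 3 of 4 nucleolar genes, 6 of 8 large subunit genes, 3 of 5 box H/ACA genes, 3 of 8 small subunit genes, 2 of 5 box C/D genes and, of the polymerase I genes, RRN3 (−0.72 ± 0.19) and POLR1B (−0.64 ± 0.13) fell. UBTF had a value of 0.00 (95% interval −0.28 to 0.29) and NPM1 of −0.43 (−0.74 to −0.11, edgeR adjusted p = 0.0643). In these libraries small and mitochondrial RNA took 16.08% to 17.38% of counts with CC-115 and 11.04% to 11.96% in Control, and with protein-coding genes only 19 members fell and 4 rose (23.5% and 23.6% of those genes). The 8 markers of other cells summed to 7.81 to 13 CPM with CC-115 and 3.09 to 4.41 CPM in Control, with 1 of 2 testable markers called, COL1A1 (log2 fold change 1.91 ± 0.38), PECAM1 at 0 in all 5 libraries and PTPRC at 0 in 4 of them. The part of these shares and markers in the result was not tested.

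Whether CC-115 changed a gene by different amounts in the 2 lines was tested in a joint fit of 11 libraries, and the difference was called for 13 of 35 genes (27.5% of all genes). The effect was the more positive one in C4-2 for 8 (12.3% of all genes) and in 22Rv1 for 5 (15.2%). NOLC1 (1.05 ± 0.13, edgeR adjusted p = 9.25e-05), RRN3 (0.88 ± 0.20), HEATR1 (0.86 ± 0.17), GNL3 (0.79 ± 0.13) and UTP20 (0.67 ± 0.14) differed in the first direction. RRN3 stood at 135, 125 and 135 CPM with CC-115 and 123, 112 and 104 CPM in Ctrl in C4-2, but at 30.8 and 21.2 CPM with CC-115 and 44.7, 45.5 and 38 CPM in Control in 22Rv1. BYSL (−0.66 ± 0.14), NOB1 (−0.66 ± 0.12), RRP9 (−0.58 ± 0.13) and FBL (−0.57 ± 0.12) differed in the second. FBL fell in C4-2 (−0.64), while in 22Rv1 it overlapped between CC-115 (125 and 145 CPM) and Control (134, 147 and 162 CPM). For MYC the difference was 0.09 (95% interval −0.11 to 0.30, edgeR adjusted p = 0.562). The count was 20 without 22Rv1 Control replicate 3 (33.2% of all genes) and 22 without 22Rv1 CC-115 replicate 1 (34.7%), which leaves 1 CC-115 library assumed to vary like the other groups.

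**Figure D4:**
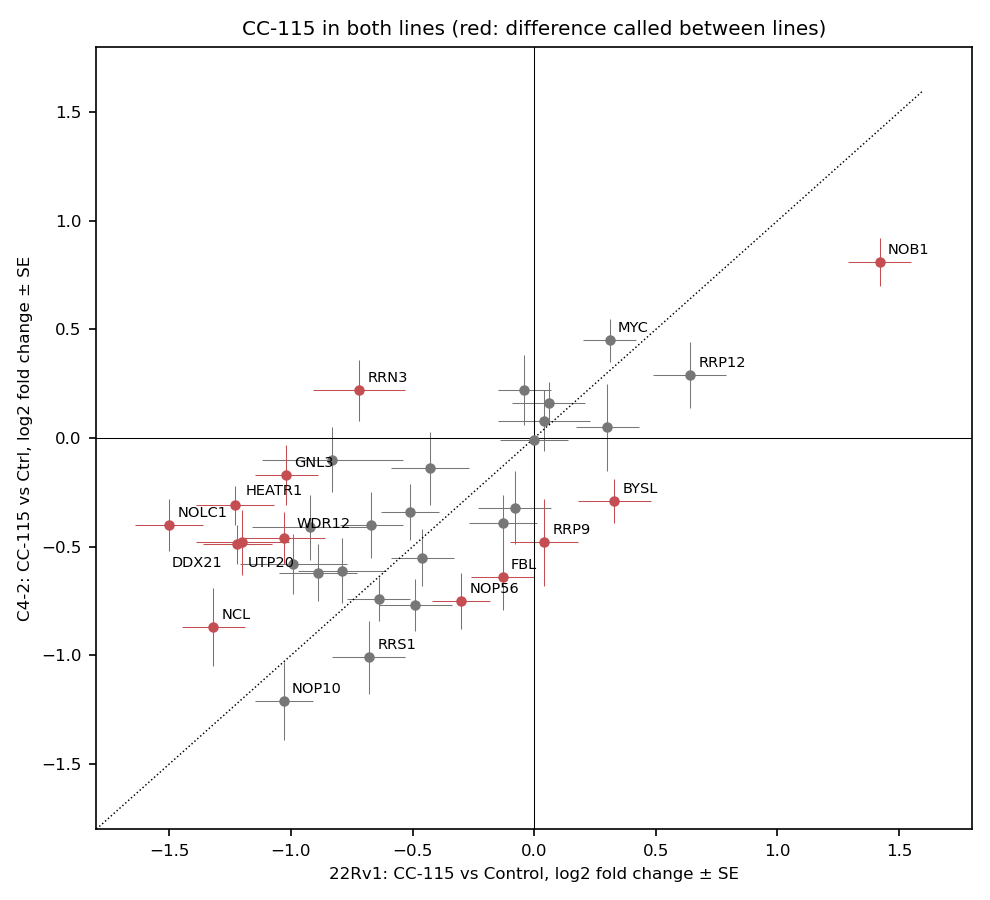
Log2 fold change with CC-115 in C4-2 (vertical axis) against that in 22Rv1 (horizontal axis) for the 35 measured genes, with SE bars and the line of equal change dotted; red points have a called difference between the lines. NOB1 and MYC lie in the upper right, NOP10 and NCL in the lower left, and RRN3 is above 0 in C4-2 and below 0 in 22Rv1.

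Genes with and without CACGTG in the promoter window are described side by side, with no test. With CC-115 in C4-2, 10 of the 14 with it fell, with a median of −0.48. Of the 15 with a window but no such letters 9 fell and 1 rose, with a median of −0.34. Over all genes tested 26.0% fell and 27.6% rose. With CC-223 7 of 14 (median −0.41) and 5 of 15 (−0.26) fell, against 10.9% of all genes. In 22Rv1 with CC-115 7 of 14 (−0.66) and 9 of 15 (−0.51) fell, against 20.7%. There 1 of the 15 rose, against 20.2% of all genes. Of the 5 genes printed above, NOP10, UTP4, UTP20, DDX21 and RRP9 all fell with CC-115 in C4-2. In 22Rv1 NOP10, UTP20 and DDX21 fell, while RRP9 (0.04, 95% interval −0.23 to 0.32) and UTP4 (−0.13, −0.39 to 0.14) were not called.

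Other genes of the same pathway, from lists chosen with earlier results of these data known, are given for comparison. Their counts stand beside 26.0% of all genes lower and 27.6% higher with CC-115 in C4-2, and 20.7% lower and 20.2% higher in 22Rv1. Of 39 further small subunit factors 19 fell and 4 rose with CC-115 in C4-2 (median −0.29), and 24 fell and 6 rose in 22Rv1 (−0.85). NOL11 fell in both lines (−1.03 ± 0.14 in C4-2, −1.52 ± 0.26 in 22Rv1), while UTP14A rose in C4-2 (1.5 ± 0.16). Of 38 further large subunit factors 15 fell and 8 rose in C4-2 (median −0.03), and 16 fell and 4 rose in 22Rv1 (−0.37), with BRIX1 at −1.28 ± 0.16 in C4-2 and −1.59 ± 0.32 in 22Rv1. Of 12 further polymerase I subunits and factors 4 fell and 6 rose in C4-2 and 3 fell and 3 rose in 22Rv1. In C4-2 these included TAF1D, of the promoter selectivity complex (1.75 ± 0.14), the subunit POLR1G (−1.55 ± 0.14) and the nucleolar phosphoprotein TCOF1 (−1.22 ± 0.15). Of 12 genes of the RNA exosome, which trims precursors from the end, 5 fell in each line, EXOSC3 and EXOSC9 among them, and 3 and 2 rose, EXOSC5 among them in both.

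Of 19 tested MYC targets outside the ribosome 13 fell with CC-115 in C4-2 (median −0.96), and 10 fell and 5 rose in 22Rv1 (−0.47). TFRC, the transferrin receptor, changed by −3.0 ± 0.11 in C4-2 and −2.89 ± 0.23 in 22Rv1, LDHA, a lactate dehydrogenase, by −1.69 ± 0.15 and the cell cycle kinase CDK4 by −1.61 ± 0.14 in C4-2. Of 10 tested MYC partners and antagonists 4 rose and 3 fell in C4-2, with the paralog MYCL at −1.15 ± 0.17 and the antagonists MXD3 at −0.96 ± 0.15 and MXI1 at 0.85 ± 0.17. With CC-223 10 of the 19 MYC targets fell, against 10.9% of all genes.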

How the data were processed

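Total RNA was sequenced in 29 libraries. The submitters' processing notes name STAR 2.5.2a, featureCounts 1.5.0-p3, DESeq2 1.14.1 and the build hg19. Neither the strand setting of the counting nor the annotation release is stated in the sources used here. The deposited values are raw counts per gene, which the authors left unnormalized, in 1 table per line. Symbols were matched to 52181 of 63677 identifiers. MYC, the other members, the promoter motif and all gene lists were chosen with earlier results of these data known. Named in each comparison are MYC, the members of largest fold change among those called without overlap of the groups (at most 6), up to 4 in the minority direction and 7 fixed representatives; the other members named account for their role group, and pathway lists give up to 3 genes each.

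Counts were scaled by TMM and tested with edgeR 4.0.16 (glmQLFit and glmQLFTest, R 4.3.3, limma 3.58.1) after its filterByExpr filter, which left 22860 genes in C4-2, 19392 in 22Rv1 and 22922 in a joint fit of the CC-115 and untreated libraries of both lines. All 24 C4-2 libraries entered 1 fit with a mean per group. Benjamini-Hochberg adjusted p under 0.05 over all genes tested was a call. The alternatives were median-of-ratios scaling, DESeq2 1.42.0, no filter and a stricter one (CPM of at least 1), protein-coding genes only, the replicate number as a term, only the libraries compared, leaving out Enza 1 and CC-115+Enza 1, and leaving out each library in turn. Printed CPM are TMM-scaled. Library totals of 29.58 to 44.91 M counts leave counting error small for these genes, so the spread between libraries sets the precision. Replicates of a group differed beyond counting noise in every pair (chi-square per degree of freedom 4.01 to 188.54), so none was merged. Promoter sequences are RefSeq windows of GRCh38.p14, used only as letters, while gene coordinates are the hg19 ones of the count tables. The fits were tested on simulated counts. Tables were read and drawn with Python 3.11.15, pandas 2.3.3, numpy 2.4.6 and matplotlib 3.10.9.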

Additional observations from a re-analysis of the deposited data

Results flagged for a closer look

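The effect of CC-115 differed between the lines in 13 of 35 genes by the interaction test of the joint fit (edgeR's quasi-likelihood test, Benjamini-Hochberg adjusted). The same test called 27.5% of all 22922 genes tested, so such differences were not particular to these genes. The differences in log2 fold change, C4-2 minus 22Rv1, were 1.05 for NOLC1, 0.88 for RRN3, 0.86 for HEATR1, 0.79 for GNL3, 0.67 for UTP20, 0.66 for DDX21, 0.51 for WDR12 and 0.40 for NCL. They were −0.50 for NOP56, −0.57 for FBL, −0.58 for RRP9, −0.66 for BYSL and −0.66 for NOB1. The lines were counted in separate tables, and 22Rv1 has 2 CC-115 libraries, so each value of that line rests on few samples.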

How the results depend on the processing

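Of the single-gene results under alternatives other than leaving out 1 library, 547 kept direction and side of the threshold, 16 lost the call, 8 gained it and 1 changed sign; leaving out 1 library, the numbers were 479, 34, 1 and 2. The sign changes were the NU7441 by Enza interaction of MYC (−0.05), at 0.01 without Enza 1 and CC-115+Enza 1, 0.0 without NU7441 2 and 0.03 without Enza 1 (−0.08 to 0.03 over the libraries left out). Counts of members called moved as follows. NU7441 against Ctrl (1) gave 5 with DESeq2, 0 with no low-count filter, 8 with a stricter one, 6 with protein-coding genes only, 0 with the replicate block, 22 with only the libraries compared and 28 without Enza 1 and CC-115+Enza 1. Beside these the share of all genes called, 3.39% in the main fit, was 7.6%, 2.02%, 7.73%, 9.18%, 2.5%, 13.8% and 21.7%. With only the libraries compared CC-223 (16) gave 29, Enza (6) 2, CC-115+Enza (22) 8, CC-115 against CC-223 (10) 20, CC-115 against NU7441 (14) 27 and NU7441 against CC-223 (0) 8. In that order the shares of all genes went from 23.9% to 47.5%, 16.1% to 5.36%, 58.7% to 39.3%, 43.1% to 63.8%, 49.0% to 63.6% and 7.31% to 21.3%. Without Enza 1 and CC-115+Enza 1, CC-223 gave 29, Enza 21, NU7441+Enza (0) 1, CC-115 against CC-223 18, CC-115 against NU7441 28, NU7441 against CC-223 12, and the interactions of CC-115 (0) 13 and CC-223 (0) 1. CC-115 against CC-223 gave 6 with median-of-ratios scaling (42.4% of all genes) and 6 with the replicate block (41.6%). NU7441+Enza gave 5 with no filter (1.38%) and 1 with protein-coding genes (1.39%). NU7441 against CC-223 gave 1 with DESeq2 (11.6% of all genes), 2 with the stricter filter (14.1%) and 1 with protein-coding genes (14.2%). The CC-115 interaction gave 1 under each of these 3 (6.07%, 5.34% and 6.01%). Leaving out 1 library gave 0 to 3 for NU7441 (0 without Ctrl 1 or 2 or NU7441 2 or 3), 18 to 24 for CC-115, 11 to 19 for CC-223, 3 to 8 for Enza, 0 to 11 for NU7441+Enza, 20 to 23 for CC-115+Enza, 11 to 21 for CC-223+Enza, 5 to 7 for CC-115 against CC-223 (5 without CC-223 1, 6 without any CC-115 library), 9 to 11 for CC-115 against NU7441 (9 without NU7441 1 or 3), 0 to 0 for NU7441 against CC-223 and the NU7441 and CC-223 interactions, 0 to 5 for that of CC-115 (5 without CC-115+Enza 1), 17 to 23 for 22Rv1 and 10 to 22 for the difference between lines. Shares over all genes moved as well when 1 library was left out, for NU7441 against Ctrl between 0.321% and 3.44%. They ran from 47.0% to 48.8% for CC-115, 15.8% to 21.1% for CC-223 and 7.67% to 21.2% for Enza. For combinations they ran from 0.0% to 4.96% with NU7441+Enza, 53.5% to 58.3% with CC-115+Enza and 19.3% to 29.1% with CC-223+Enza. They were 35.7% to 37.2% for CC-115 against CC-223, 42.0% to 44.3% for CC-115 against NU7441 and 3.72% to 7.12% for NU7441 against CC-223. The CC-115 interaction had 1.65% to 5.29%. Without 1 Control library 22Rv1 had 26.3% to 43.9%. The CC-223 split (1 higher, 15 lower) was 0 and 20 with median-of-ratios scaling, against 10.9% and 12.8% of all genes. The labels do not say whether libraries with the same replicate number were handled together. In their deviations from the group means 5 of 84 such C4-2 pairs correlated above 0.1. Of pairs with different numbers 24 of 168 did. With 3 libraries per group these correlations cannot decide whether handling was shared. The causes of the other moves were not tested. Depth limits no member measured, since each had at least 152 counts in every library.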
